A study of Mus musculus with 26 samples.

Results

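The comparison described here sets mouse primordial germ cell-like cells (PGCLCs) at day 2 of induction with dTAG13 against PGCLCs of the same day with the solvent DMSO. All genes of the dTAG13 table with a mean of at least 1 over its 10 libraries were taken, which kept 16605 of 53978 genes, and 4 of the series' 26 libraries were compared, 2 in each group. PGCLCs are induced in culture from epiblast-like cells (EpiLCs), which resemble the epiblast just after implantation. The series examined Tex10 in this induction and in the testis, and the comparison asks which pathways and cell states changed early after Tex10 depletion.

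All cells of this experiment were of the strain 129Sv/J. The control group received DMSO and the treated group dTAG13 at 500 nM. DMSO and dTAG13 libraries of day 4 (2 each) and 2 libraries of untreated EpiLCs are quoted for reference. dTAG13 is a small molecule that brings a tagged protein to a ubiquitin ligase for breakdown. The labels name no clone and do not describe the tag. Cells without the tag that received dTAG13 were not analysed here, so an effect of the compound itself and an effect of Tex10 loss cannot be told apart. Nothing in the labels says that the 2 libraries of a group came from separate cultures, so p-values measure the spread between these libraries, which may be technical.

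Tex10 is a subunit of the rixosome, a complex with Pelp1, Wdr18, Senp3, Las1l, Nol9 and Mdn1 that processes the precursor of the large ribosomal subunit and also binds chromatin. In the mouse, germ cells are set apart from the epiblast by BMP and WNT signals, which switch on Prdm1, Prdm14 and Tfap2c. During this step the cells lose genes of the formative epiblast and regain genes of naive pluripotency. p53 is a transcription factor kept low by Mdm2, which is itself a p53 target. ATF4 is a transcription factor that drives amino acid synthesis and transport genes when translation is restrained.

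Values are TMM-scaled CPM, the reads of a gene relative to a library size adjusted by the trimmed mean of M values. The 4 day 2 libraries held between 5055362 and 6662524 reads in the table, and 3 reads, taken as the floor, corresponded to 0.377 to 0.466 units. Such floors cover counting error only. Changes are log2 fold changes of value + 1, dTAG13 minus DMSO, which understate the change of genes with low values, and the threshold for a call was a limma p of 0.05 after Benjamini-Hochberg adjustment across the 16605 genes. The cells were measured in bulk, so more or fewer cells of a type and more or less RNA per cell cannot be told apart. A few properties of the libraries moved with the groups. Genes with a read numbered 23999 and 23860 with DMSO but 26078 and 26842 with dTAG13. Reads of olfactory receptor genes, a family restricted to sensory neurons, made up 77.0 and 89.4 CPM of a library with DMSO and 169 and 191 with dTAG13. Day 4 DMSO replicate 2 also stood high, at 206 CPM against 66.9 in the other library of its group. The part of this difference in the results on genes of low level was not tested.

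Of the 16605 genes, 5577 were called, which is 33.6%. Higher with dTAG13 were 2269 genes (13.7%) and lower were 3308 (19.9%). The median change of all genes was -0.09. Of the calls, 40.7% were higher as the values were deposited, but 53.4% were once libraries were scaled by median ratios, which moved the median of all genes to 0.00. The authors' deposited table lists 2961 genes at an FDR under 0.05, of which 1597 were higher and 1364 lower. Among genes with a mean between 1 and 2, 202 were called at least 2-fold higher and 44 at least 2-fold lower. The filter mean includes the dTAG13 libraries, so genes low elsewhere could pass it only by being high with dTAG13. Fas, Gata6, Hey2, Wnt6, Wnt10a, Fosl1, Dusp2, Hspa1a, Runx1, Taf7l, Nipal4, Ptprt and Jph2, named below, were among those that passed in this way. Counts of higher members are in part set by this. Counts of called members below stand beside the shares of all genes, 13.7% higher and 19.9% lower. Among lists with at least 10 tested members, those with the largest shares called were p53 targets on the higher side and core pluripotency, replication and mitosis, ATF4 and naive pluripotency on the lower side.

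**Figure D1:**
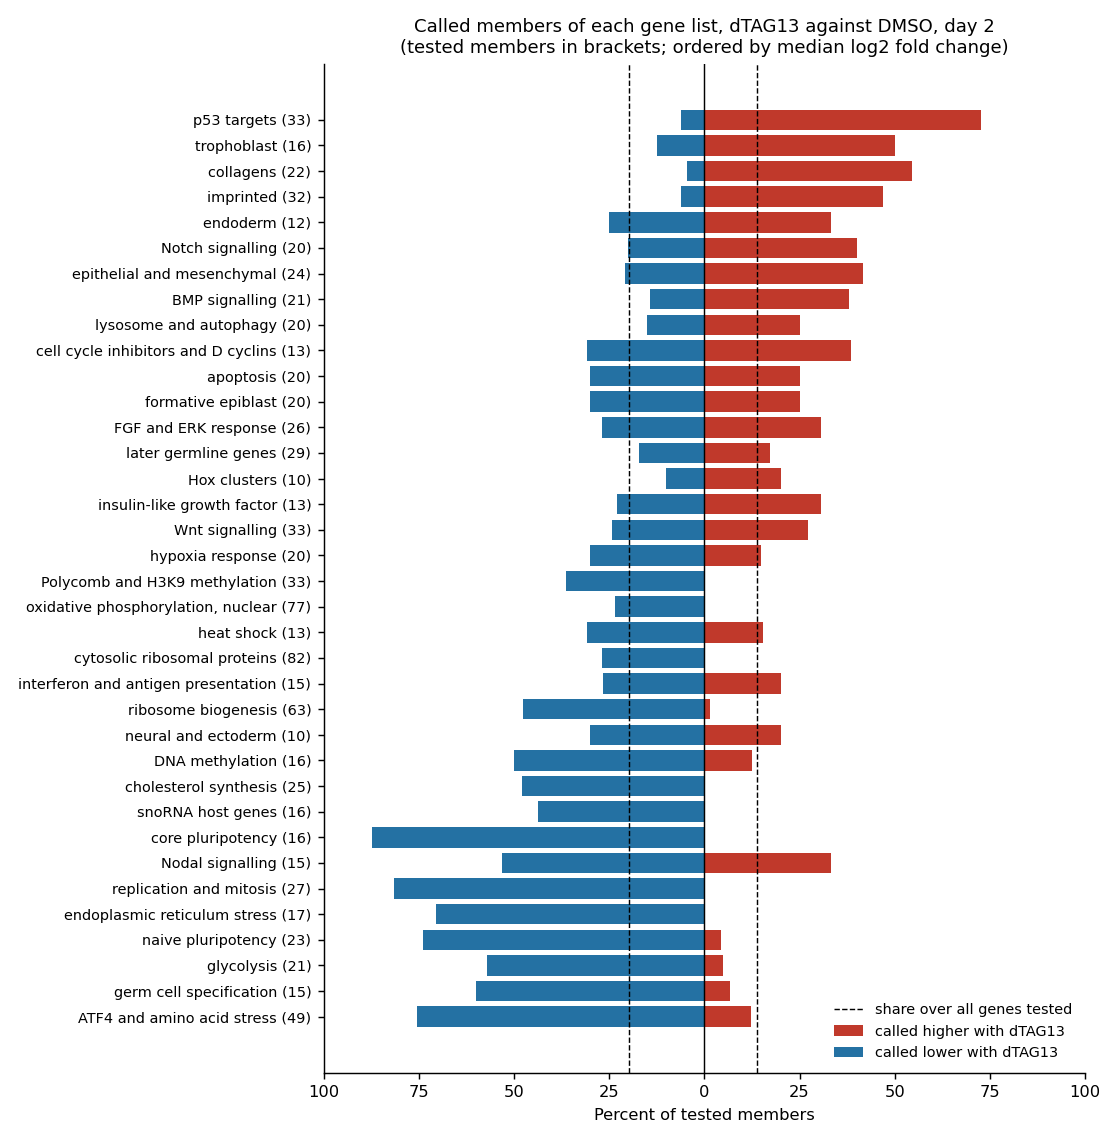
Each bar gives the percent of tested members of a gene list that were called higher (right, red) or lower (left, blue) with dTAG13 at day 2, with the number tested in brackets. The dashed lines mark the shares over all tested genes, 13.7% higher and 19.9% lower. Lists with at least 10 tested members are shown, ordered by their median change from ATF4 and amino acid stress (-0.84) at the bottom to p53 targets (1.06) at the top.

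Tex10 itself (ENSMUSG00000028345.15, protein-coding, chr4:48430858-48473459 on the minus strand of GRCm38) stood at 106 and 113 with DMSO and at 104 and 94.0 with dTAG13. This difference was not called (log2 fold change -0.14, SE 0.11, limma adjusted p = 0.322). A degrader acts on the protein, so this mRNA does not check the depletion. Of the 7 rixosome genes, 3 were called lower and none higher, where 19.9% of all genes were called lower. Pelp1, the scaffold of the complex, fell from 185 and 176 to 118 and 129 (log2 fold change -0.55, SE 0.11, limma adjusted p = 0.000412). Senp3, a SUMO protease, fell from 151 and 149 to 109 and 97.5 (-0.54). Las1l, an endonuclease, fell from 78.1 and 88.9 to 58.6 and 56.3 (-0.53). Wdr18 (-0.26), Nol9 (-0.05) and the AAA ATPase Mdn1 (-0.19) were not called, with limma adjusted p of 0.0681, 0.771 and 0.197.

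Most listed targets of p53 were called higher. Of 33 genes on the list, which includes Trp53 itself, 24 were called higher, where 13.7% of all genes were, and 2 lower, with a median of 1.06 against -0.09 over all genes. Mdm2, the ubiquitin ligase that restrains p53 (chr10:117688875-117710758), stood at 235 and 233 in the DMSO libraries and at 1196 and 1158 in the dTAG13 libraries. The groups lay far apart and the 2 libraries of each were close (log2 fold change 2.33, SE 0.10, limma adjusted p = 2.69e-13). Perp, a membrane protein of the p53 death response, rose from 58.2 and 58.0 to 396 and 413 (2.78, SE 0.11, limma adjusted p = 9.80e-14), the largest change of the list. Plk2, a kinase of the Polo family, rose from 30.4 and 28.0 to 155 and 180 (2.48). Cdkn1a, the p21 inhibitor of cyclin-dependent kinases, rose from 54.6 and 45.5 to 190 and 186 (1.9, SE 0.12, limma adjusted p = 1.79e-10). Pmaip1, which encodes the death protein Noxa, rose from 18.2 and 16.8 to 80.2 and 79.7 (2.13). Pltp, a phospholipid transfer protein, rose from 6.92 and 7.46 to 36.4 and 33.4 (2.13). The death receptor gene Fas was at or under the floor with DMSO, at 0.377 and 0.00, and stood at 5.75 and 3.08 with dTAG13. It passed the filter only through dTAG13 libraries, so its place in the 24 is no result. Every called increase named here had both dTAG13 libraries above both DMSO libraries, as 27.6% of all tested genes did.

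The gene for p53 did not follow its targets: Trp53 stood at 148 and 147 with DMSO and at 131 and 127 with dTAG13, which was not called (-0.19, limma adjusted p = 0.186). In untreated EpiLCs Mdm2 stood at 179 and 172 and Cdkn1a at 45.9 and 49.6, Perp at 10.9 and 11.2 and Pmaip1 at 46.8 and 60.3. Against these levels the DMSO libraries were higher for Mdm2 and Perp, overlapped for Cdkn1a and were lower for Pmaip1, and the dTAG13 libraries were higher for each of the 4. At day 4 the change of Mdm2 was 3.00, against 2.33 at day 2. The count of higher members was 24 without any single day 2 library, and the 2 decreases became 0 without DMSO replicate 1 or dTAG13 replicate 2.

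A p53 response element was searched for in the 250 bases before the start sites that RefSeq lists on GRCm38.p6, as a pair of half-sites with at most 1 base between them and at most 2 mismatches in all. It was present for 2 of the 19 higher p53 targets with a promoter in the table (10.5%), for 0.828% of all tested genes with a promoter, for 1.71% of the higher and for 0.415% of the lower genes. The 2 are Cdkn1a, at its upstream start site, and Ccng1, which encodes cyclin G and rose by 1.14. Both windows are shown because they carry this element, which is in capitals:
Cdkn1a, chr17:29090898-29090977, plus strand: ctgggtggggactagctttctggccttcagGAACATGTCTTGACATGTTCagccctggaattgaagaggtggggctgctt
Ccng1, chr11:40755432-40755511, minus strand: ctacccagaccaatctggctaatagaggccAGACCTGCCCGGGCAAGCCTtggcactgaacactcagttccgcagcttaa
Each holds 1 mismatch to the element. A match describes the letters and no binding was measured. Both were looked up among the higher genes. Bax, a p53 target that promotes cell death, also holds the element, with 2 mismatches, and was not called (-0.11, limma adjusted p = 0.537).

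Most genes of the ATF4 list were called lower, and a few rose steeply. Of 49 tested members of the list, 37 were called lower, where 19.9% of all genes were, and the median was -0.84. Another 6 were called higher, a share near the 13.7% of all genes. Nupr1, a stress-induced chromatin protein, stood at 13.7 and 10.7 with DMSO and at 1.09 and 0.401 with dTAG13 (log2 fold change -2.94, SE 0.29, limma adjusted p = 1.02e-07), the largest decrease among all named genes. Chac1, which degrades glutathione, fell from 30.3 and 25.5 to 3.3 and 4.01 (-2.64, SE 0.23, limma adjusted p = 1.36e-08). Pck2, the mitochondrial phosphoenolpyruvate carboxykinase, fell from 65.9 and 70.6 to 21.0 and 10.4 (-2.13). Asns, asparagine synthetase, fell from 197 and 173 to 60.9 and 61.8 (-1.57, SE 0.12, limma adjusted p = 1.42e-09). The pseudokinase gene Trib3 fell from 39.5 and 41.9 to 17.9 and 25.3 (-0.90). Atf4 itself fell less, from 223 and 217 to 173 and 163 (-0.39, SE 0.10, limma adjusted p = 0.00541), a call that was lost without DMSO replicate 1, without dTAG13 replicate 2 and with no variance trend.

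Several of these genes had been lower in EpiLCs than in DMSO cells of day 2. Chac1 stood at 4.56 and 4.32 in EpiLCs and Nupr1 at 1.65 and 2.11, so for these 2 the dTAG13 libraries lay below the EpiLC level and the DMSO libraries above it. Atf4 stood at 118 and 138 in EpiLCs, below both groups of day 2. The members that rose include genes that encode other transcription factors and inhibitors of growth signalling. Atf3 rose from 2.39 and 3.66 to 23.5 and 25.5 (2.68, SE 0.28, limma adjusted p = 1.72e-07). Ddit4, an inhibitor of mTORC1, rose from 57.7 and 60.4 to 325 and 311 (2.41). Ddit3, which encodes CHOP and overlaps Mars on the other strand, rose from 2.77 and 2.31 to 17.9 and 17.0 (2.38). Reads of overlapping genes may be shared, as the counting is not stated to have used strand. The count of lower members was between 31 and 39 over the alternatives in which list members were counted, and that of higher members was 6 in each of them.

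The amino acid response element TGATGCAA, read on both strands, was the motif of interest for this list. It lay in the 250 bases before a start site for 8 of the 29 lower members with a promoter (27.6%), for 1 of the 11 other members (9.09%) and for 67 of 10751 tested genes with a promoter (0.623%). The list was drawn up from known ATF4 targets, so the presence of the element describes how such lists are made as well as these genes. The gene outside the lower set was Atf3, which rose. The lower genes with it, named here because their window held the element, are Nupr1, Chac1, Slc7a11, Aars, Pycr1, Jdp2, Tars and Vldlr. The windows of the 2 largest decreases and of Atf3 are shown because the same letters precede genes that moved in opposite directions. Capitals mark the element, which here lies in its reverse complement:
Nupr1, chr7:126625543-126625610, minus strand: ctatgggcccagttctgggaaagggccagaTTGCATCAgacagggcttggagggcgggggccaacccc
Chac1, chr2:119351019-119351086, plus strand: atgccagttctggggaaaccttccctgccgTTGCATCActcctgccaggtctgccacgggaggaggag
Atf3, chr1:191183406-191183473, minus strand: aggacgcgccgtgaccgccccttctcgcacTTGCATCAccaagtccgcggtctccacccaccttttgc
The element starts 110 bases before the start site for Nupr1 and Atf3 and 193 bases before it for Chac1. Among all called genes the element was at 0.428% of the higher and 0.967% of the lower genes with a promoter. For the E-box CACGTG the shares were 10.4% of the higher, 10.7% of the lower and 9.92% of all genes, and its extended form TCACGTGA, which holds that E-box, was at 1.83%, 1.29% and 1.71%. The cyclic AMP element TGACGTCA was at 2.57%, 3.09% and 3.10%, the GC box GGGCGG at 67.9%, 66.6% and 63.9%, the octamer ATGCAAAT at 1.71%, 2.12% and 1.71%, and the TCF site CTTTGAT at 2.08%, 2.12% and 2.63%, in the same order.

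**Figure D2:**
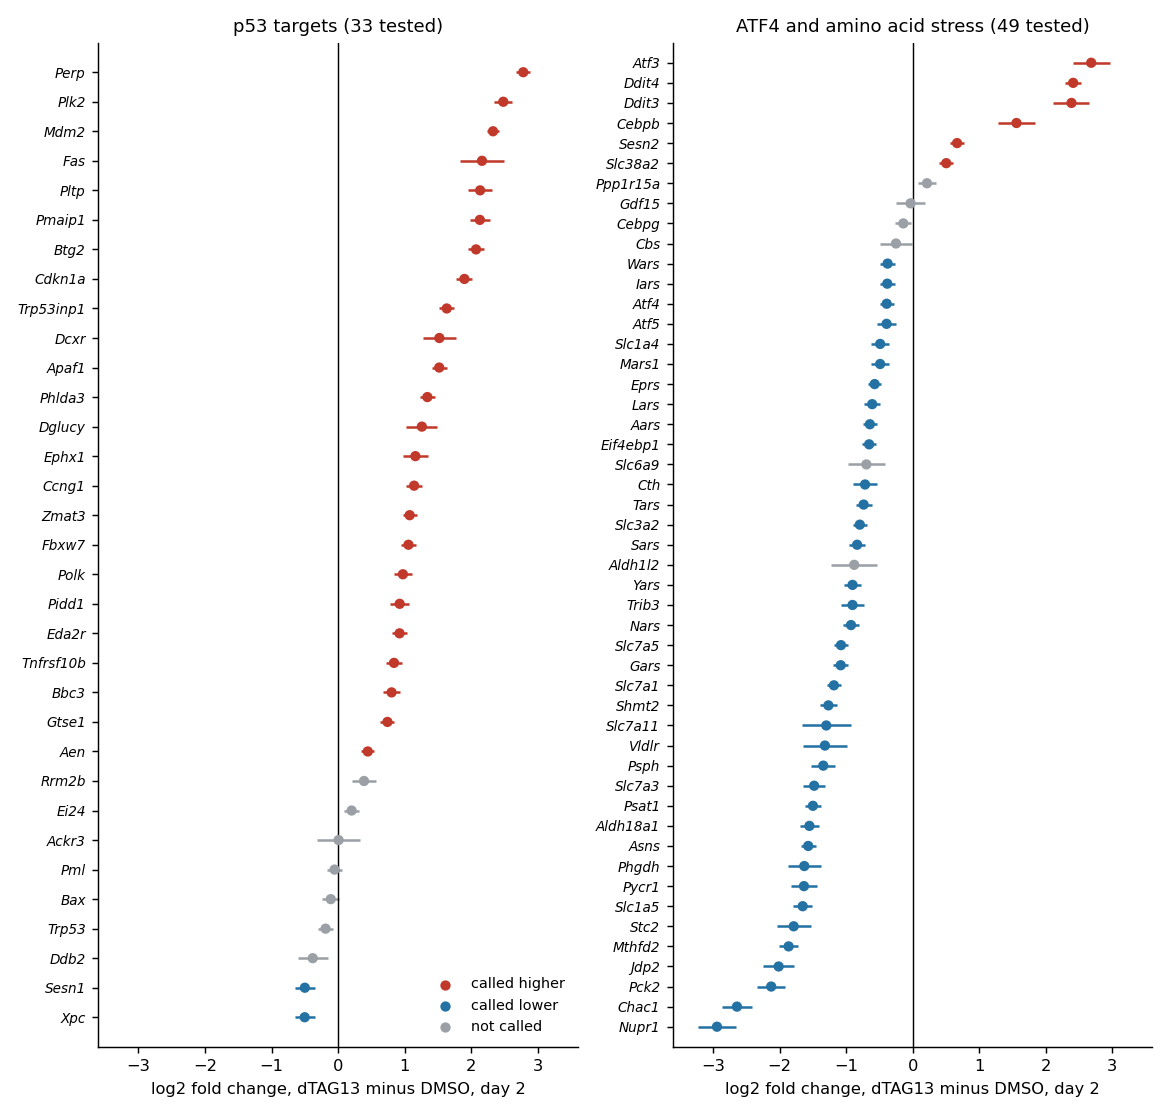
Log2 fold change (dTAG13 minus DMSO, day 2; points) and its SE (lines) for every tested member of the p53 and ATF4 lists. Red points were called higher, blue points lower and grey points not called; 24 of 33 p53 targets are red, and 37 of 49 ATF4 genes are blue with Atf3, Ddit4 and Ddit3 at the opposite end.

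Most listed genes of pluripotency were called lower with dTAG13. Of 23 naive pluripotency genes 17 were called lower and 1 higher (median -0.70), and of 16 core pluripotency genes 14 were called lower and none higher (median -0.48). Nanog, a homeodomain factor of both the naive state and germ cells (chr6:122707489-122714633), stood at 104 and 105 in EpiLCs. It stood at 437 and 427 with DMSO and at 159 and 143 with dTAG13 (log2 fold change -1.51, SE 0.13, limma adjusted p = 1.70e-08). Both dTAG13 libraries lay between the EpiLC and the DMSO libraries, and nearer to the EpiLCs. Nanog lies on chromosome 6, whose genes as a whole differed from those of the other autosomes by -0.27, as described further on.

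Esrrb, a nuclear receptor of the naive network, stood at 179 and 182 in EpiLCs, 465 and 427 with DMSO and 204 and 182 with dTAG13 (-1.21, SE 0.10, limma adjusted p = 1.62e-08). Zfp42, known as Rex1, stood at 225 and 196, at 523 and 471, and at 246 and 221 in the same order (-1.09). Klf4, a zinc finger factor, stood at 47.7 and 37.3, at 106 and 97.3, and at 44.3 and 40.9 (-1.24). For these 3 genes the DMSO libraries lay above the EpiLCs and the dTAG13 libraries lay close to them, as the plot of levels by library shows. Other naive genes had another order. Gbx2 (-1.53) stood at 52.5 and 51.2 in EpiLCs, 34.3 and 30.9 with DMSO and 13.5 and 8.29 with dTAG13, and the X-linked Nr0b1 (-1.46) at 66.4 and 70.2, at 70.7 and 62.7, and at 27.7 and 19.9. Over the 23 genes the median level, as log2(value + 1), was 5.82 and 5.71 in EpiLCs, 6.81 and 6.71 with DMSO and 6.56 and 6.47 with dTAG13. Tcl1 (-1.22) fell as well. The 1 naive gene called higher was Pecam1 (0.39), which also marks endothelium and was not called without DMSO replicate 2 or dTAG13 replicate 1.

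The core factors fell by less. Pou5f1, which encodes Oct4, went from 339 and 302 to 185 and 199 (log2 fold change -0.73, SE 0.11, limma adjusted p = 1.54e-05). Sox2, its partner, went from 503 and 452 to 358 and 328 (-0.48, SE 0.11, limma adjusted p = 0.00237). Dppa5a (-1.08), the Nodal co-receptor gene Tdgf1 (-1.04), Gdf3 (-0.90), L1td1 (-0.84) and Lin28b (-0.74) were the other called members with the largest changes after Nanog. The count of lower core genes was 9 without dTAG13 replicate 1 and 10 after median-ratio scaling.

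Of 15 tested genes that specify germ cells, 9 were called lower and 1 higher, with a median of -0.73. Prdm14, a repressor needed for germ cell fate (chr1:13113457-13127163), stood at 36.5 and 34.6 with DMSO and at 9.48 and 8.29 with dTAG13 (log2 fold change -1.89, SE 0.21, limma adjusted p = 5.40e-07). Its EpiLC values were 8.87 and 6.65, close to those with dTAG13. Prdm1, which encodes Blimp1, stood at 51.2 and 46.4 with DMSO and at 20.7 and 22.7 with dTAG13, beside 21.5 and 24.4 in EpiLCs (-1.13, SE 0.18, limma adjusted p = 4.09e-05). Kit, the receptor for stem cell factor, fell from 50.3 and 51.0 to 17.4 and 10.6 (-1.82, SE 0.18, limma adjusted p = 1.21e-07). Ifitm1 (-1.37), Elavl2 (-1.20) and the alkaline phosphatase gene Alpl (-1.0) fell too. Other genes of the list lay below the EpiLCs with dTAG13: Elavl2 stood at 87.8 and 85.0 in EpiLCs and at 30.9 and 32.1 with dTAG13, and Alpl at 90.6 and 89.3 and at 48.2 and 50.7.

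Tfap2c, which encodes another factor of the germ cell network, went the other way. It stood at 2.28 and 4.99 in EpiLCs, 104 and 90.9 with DMSO and 158 and 157 with dTAG13 (0.69, SE 0.18, limma adjusted p = 0.00551), a call that was lost without DMSO replicate 2, with no filter and with no variance trend. So both groups of day 2 lay far above the EpiLCs, and the dTAG13 libraries lay higher. At day 4 the DMSO libraries stood at 59.8 and 51.8 and the dTAG13 libraries at 184 and 204, and the change at day 4 exceeded that at day 2 by 1.09 (limma adjusted p of the difference = 0.0351). Dppa3, also called Stella, stood at 1.89 and 2.31 with DMSO and 1.87 and 2.27 with dTAG13, and the RNA-binding factor Nanos3 at 9.43 and 11.1 and at 8.55 and 6.96. Neither was called (limma adjusted p = 0.981 and 0.269).

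Among later germline genes 5 of 29 were called higher and 5 lower (median -0.03), shares near those of all genes. Meioc, a meiotic regulator, rose from 8.43 and 10.6 to 32.5 and 35.4 (1.74, SE 0.20, limma adjusted p = 7.42e-07). Tdrd7 (1.91), Taf7l (1.84) and Hormad1 (0.93) were the other named increases, and Stra8 (-1.21) and Smc1b (-0.97) fell. Taf7l passed the filter only through its dTAG13 values, so its place in the 5 increases is no result. Ddx4 stood at 5.91 and 5.02 with DMSO and 6.84 and 8.03 with dTAG13, and Dazl at 12.6 and 16.3 and at 19.6 and 13.9. Neither was called (limma adjusted p = 0.284 and 0.470). Without dTAG13 replicate 1 the list held 3 calls in each direction, and without DMSO replicate 1 it held 2 lower ones.

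The markers of the formative state showed no common direction. Fgf5, a growth factor of the postimplantation epiblast, stood at 132 and 155 in EpiLCs, 1.13 and 1.36 with DMSO and 0.466 and 2.27 with dTAG13 (limma adjusted p = 0.953). Otx2, a homeodomain factor that opposes germ cell fate, stood at 221 and 225, at 27.0 and 20.9, and at 23.2 and 25.1 in that order (limma adjusted p = 0.933). For both genes the day 2 groups overlapped and lay far under the EpiLC level. Dnmt3b, a DNA methyltransferase, stood at 106 and 136 with DMSO and at 108 and 87.2 with dTAG13, which was not called. Of the 20 formative genes, 5 were called higher and 6 lower, beside 13.7% higher and 19.9% lower over all genes. Wnt8a (2.77), the POU factor gene Pou3f1 (1.39), Cdh2 (1.22) and Dnmt3l (0.99) rose, and Tcf15 (-2.02), Fgf15 (-1.47) and Foxd3 (-1.36) fell.

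**Figure D3:**
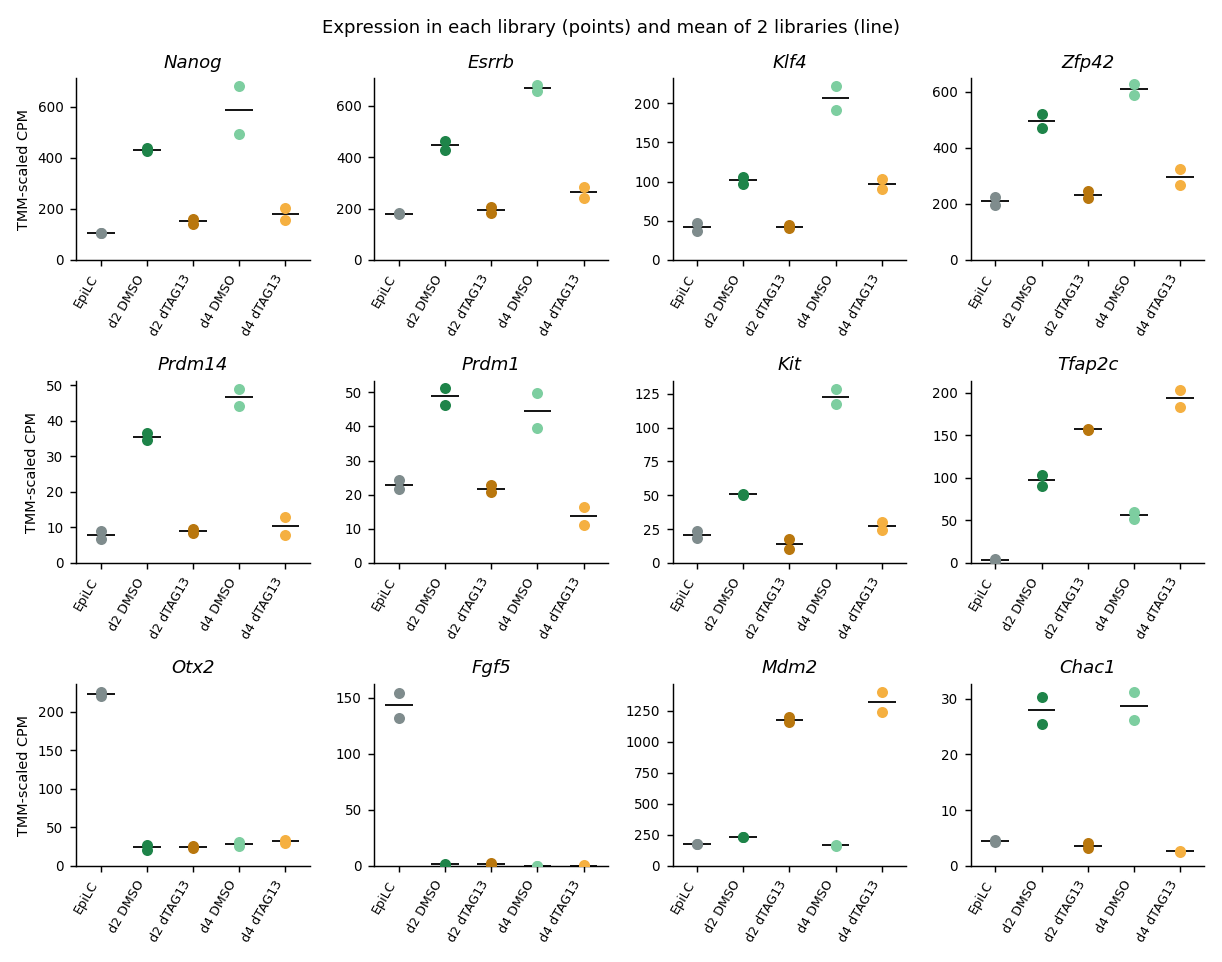
TMM-scaled CPM of 12 genes in untreated EpiLCs and in DMSO and dTAG13 cells of day 2 and day 4; points are libraries and lines the means of 2. For Nanog, Esrrb, Klf4, Zfp42, Prdm14 and Prdm1 the day 2 dTAG13 points lie near the EpiLC points and under the DMSO points, Tfap2c and Mdm2 lie above DMSO, and Otx2 and Fgf5 lie at the low level of the DMSO cells.

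Calls among signalling genes lay in both directions, beside 13.7% higher and 19.9% lower over all genes. In the Nodal pathway, which acts through activin receptors and SMAD proteins, 8 of 15 tested genes were called lower and 5 higher. The ligand gene Nodal rose from 75.6 and 79.8 to 146 and 120 (log2 fold change 0.76, SE 0.13, limma adjusted p = 9.02e-05). Lefty2, a secreted Nodal inhibitor, fell from 266 and 222 to 53.1 and 54.0 (-2.16, SE 0.12, limma adjusted p = 3.71e-11). Lefty1, its neighbour on chromosome 1, fell from 103 and 113 to 28.0 and 21.0 (-2.10, SE 0.22, limma adjusted p = 1.78e-07). Inhbb, which encodes the beta B subunit of activin and inhibin, fell from 133 and 118 to 27.7 and 24.6 (-2.22). The co-receptor gene Tdgf1 (-1.04) and the ligand gene Gdf3 (-0.90) fell, and the activin-binding inhibitor Fst rose (1.25). The 5 increases became 3 without DMSO replicate 1 and 2 without dTAG13 replicate 2.

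In the BMP pathway 8 of 21 genes with enough reads were called higher, where 13.7% of all genes were, and 3 lower, a share under the 19.9% of all genes (median 0.18). Bmp8b, a ligand of germ cell induction in the embryo, rose from 1.38 and 1.22 to 13.2 and 16.3 (log2 fold change 2.77, SE 0.28, limma adjusted p = 1.40e-07). It overlaps Ppie on the other strand. Bmp7 rose from 1.76 and 2.17 to 6.84 and 8.70 (1.56). Bmp4, the main inducing ligand, fell from 31.4 and 24.4 to 16.3 and 11.1 (-0.99, SE 0.20, limma adjusted p = 0.000500). The Id genes are direct targets of BMP-activated SMADs. Id1 rose from 154 and 154 to 207 and 246 (0.55, limma adjusted p = 0.0208). That call was lost without either DMSO replicate, without dTAG13 replicate 2, with no filter, with no variance trend and with DESeq2. Id3 rose from 30.8 and 32.4 to 66.8 and 79.7 (1.18). The target Msx2 rose (1.18), and the inhibitory Smad6 fell (-1.02). The 3 decreases became 5 without dTAG13 replicate 1.

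In the WNT pathway 9 of 33 genes that passed the filter were called higher and 8 lower (median -0.15), the second a share near the 19.9% of all genes. Among the ligands, Wnt3, needed for germ cell competence in the embryo, rose from 1.01 and 2.99 to 13.7 and 20.5 (log2 fold change 2.65, SE 0.34, limma adjusted p = 3.95e-06). Wnt8a rose from 1.01 and 2.71 to 20.1 and 15.5 (2.77). Wnt6 lay under the floor with DMSO, at 0.126 and 0.136, and at 5.44 and 4.82 with dTAG13. Wnt10a stood at 0.503 and 0.00 with DMSO and at 3.73 and 3.75 with dTAG13. Wnt6 and Wnt10a passed the filter only through dTAG13 libraries, so their place in the count of 9 is no result. The receptor gene Fzd1 rose (2.00), and the secreted WNT antagonist Sfrp1 fell from 56.5 and 42.2 to 10.4 and 11.4 (-2.07, SE 0.19, limma adjusted p = 3.82e-08). With a filter of at least 5 on the mean, 5 genes of the list were called higher.

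Of 20 tested Notch genes 8 were called higher, where 13.7% of all genes were, and 4 lower, a share near the 19.9% of all genes. The receptor genes moved apart: Notch3 rose from 107 and 123.4 to 301 and 342 (log2 fold change 1.47, SE 0.12, limma adjusted p = 1.10e-08), and Notch4 fell from 41.1 and 38.4 to 6.37 and 4.15 (-2.73, SE 0.24, limma adjusted p = 1.84e-08). The ligand gene Jag2 rose from 15.6 and 15.6 to 85.8 and 99.4 (2.49). The targets Hey2 (1.96) and Nrarp (1.30) and the coactivator Maml3 (1.69) rose. Hey2 was under the floor with DMSO, at 0.126 and 0.136. It passed the filter only through dTAG13 libraries, so its place in the 8 increases is no result. The 4 decreases became 2 without DMSO replicate 1 or without dTAG13 replicate 1.

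In the FGF and ERK list 8 of 26 genes were called higher and 7 lower, beside 13.7% higher and 19.9% lower over all genes. The sign of the median (-0.01) turned with median-ratio scaling (0.08). Phlda1, a target of ERK and other signals, rose from 17.1 and 14.5 to 101 and 115 (log2 fold change 2.70, SE 0.15, limma adjusted p = 2.3e-11). The AP-1 genes Fosl1 (2.81) and Fos (1.5), the phosphatase gene Dusp2 (1.80) and the receptor gene Fgfr4 (1.47) rose. Fosl1 and Dusp2 passed the filter only through dTAG13 libraries, so their place in the count of 8 is no result. The ligand gene Fgf15 fell (-1.47). The 7 decreases became 2 and 4 without DMSO replicate 1 and 2, and 4 and 3 without dTAG13 replicate 1 and 2.

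**Figure D4:**
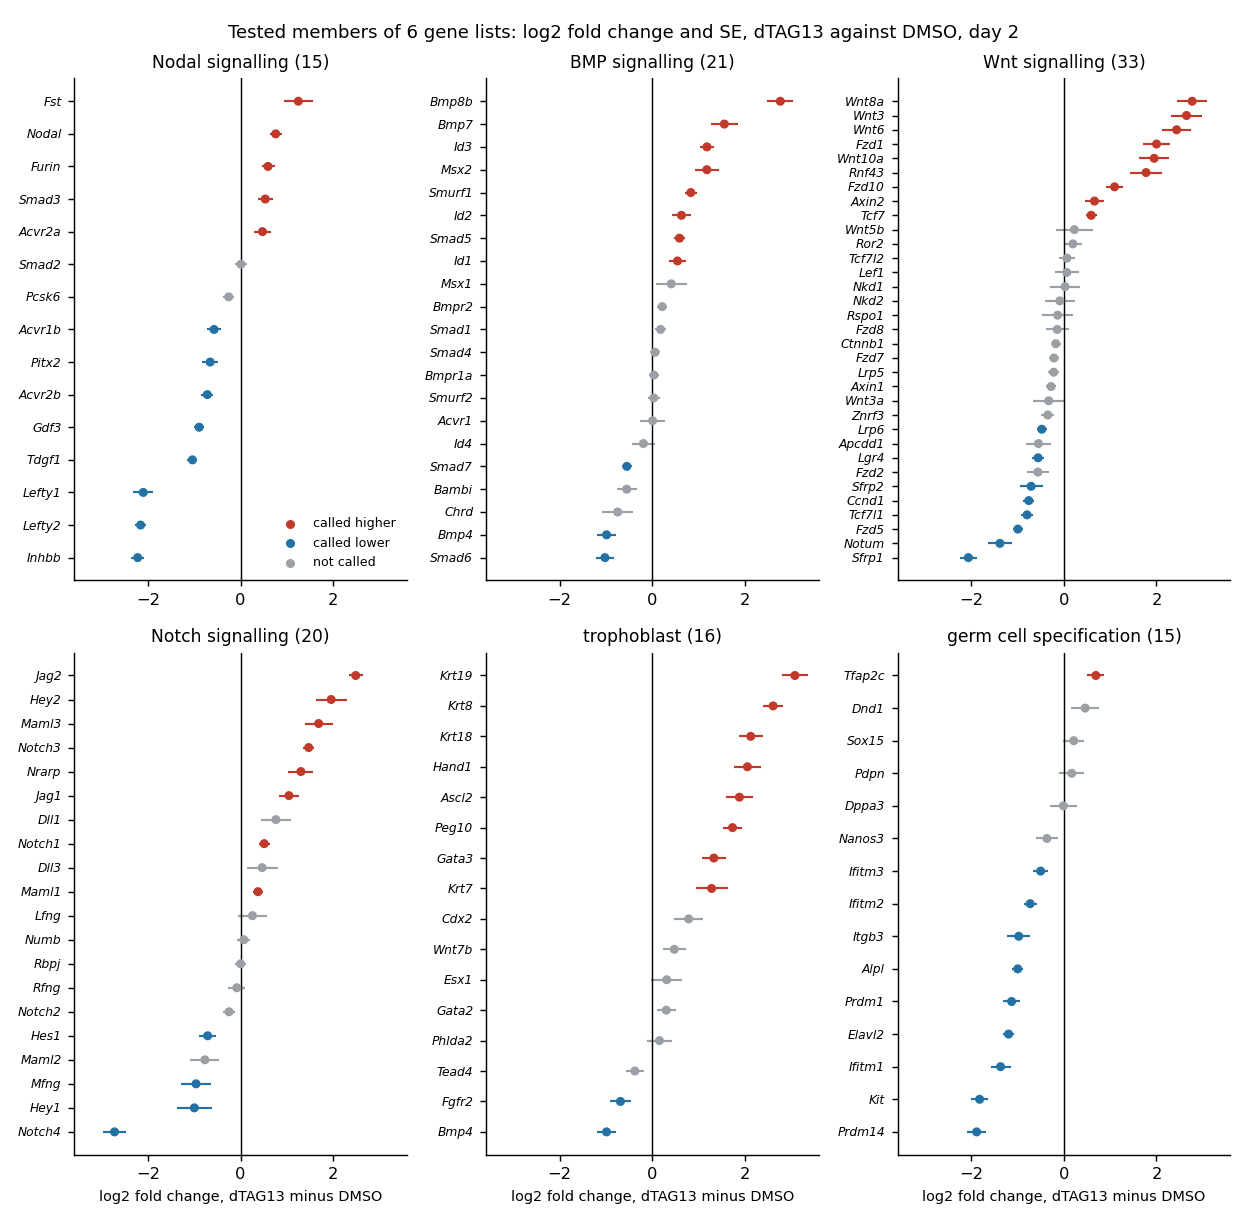
Log2 fold change and SE at day 2 for every tested member of the Nodal, BMP, Wnt, Notch, trophoblast and germ cell specification lists, with calls in red (higher), blue (lower) and grey (none). Inhbb, Lefty1, Lefty2, Notch4 and Sfrp1 lie among those to the left, and Krt19, Bmp8b, Wnt8a, Wnt3 and Krt8 among those to the right.

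Markers of other lineages were mostly low, and some members of the trophoblast, neural, endoderm, blood and fibroblast lists were called. Of 16 tested trophoblast genes 8 were called higher and 2 lower (median 1.0). Krt8 and Krt18 encode the keratin pair of simple epithelia. Krt8 rose from 7.55 and 9.63 to 49.0 and 67.2 (log2 fold change 2.61, SE 0.22, limma adjusted p = 1.25e-08), and Krt18 from 18.4 and 18.1 to 61.2 and 112 (2.13). Krt19 rose from 2.77 and 3.3 to 27.8 and 39.1 (3.08, the largest increase of the list). Hand1, a factor of trophoblast giant cells and of mesoderm, rose from 4.28 and 7.33 to 22.4 and 31.6 (2.06), and the imprinted Ascl2, a factor of the spongiotrophoblast, from 1.76 and 1.9 to 7.93 and 11.2 (1.89). The defining Cdx2 was not called (0.79), and Elf5, Tpbpa and Prl3d1 were below the filter, with Prl3d1 at 0 in all 4 libraries. The summed level of the 20 listed genes was 976 and 1295 with DMSO and 2974 and 4200 with dTAG13, most of it Peg10.

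Of 27 listed mesoderm and primitive streak genes only 9 passed the filter, with 2 called higher and none lower. Over all genes 13.7% were called higher and 19.9% lower. The 2 increases became 4 with median-ratio scaling or TMM computed again, and 1 with a filter of at least 5 on the mean. T stood at 0.126 and 0.136 with DMSO and 0.777 and 0.00 with dTAG13, and Mixl1 at 0.629 and 0.543 and at 0.311 and 0.134. Eomes, at 6.16 and 5.16 and at 5.91 and 7.09, was not called (limma adjusted p = 0.544). Snai1 rose from 0.503 and 0.679 to 2.64 and 4.01 (1.43). For endoderm, 12 of 24 passed, with 4 called higher, where 13.7% of all genes were, and 3 lower, a share near the 19.9% of all genes. Sox17 and Foxa2 were under 1 in all 4 libraries. Gata6 rose from 0.755 and 1.09 to 3.73 and 3.61 (1.29), and only its dTAG13 values carried it past the filter. The collagens Col4a1 (1.44) and Col4a2 (1.33) rose, which overlap on opposite strands. Lama1 (-1.26), Dab2 (-1.32) and Emb (-1.15) fell. The increases among genes of such low level stand beside the higher count of olfactory receptor reads in the same libraries, and its part in them was not tested.

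Of 10 tested neural and ectoderm genes 2 were called higher and 3 lower, beside 13.7% higher and 19.9% lower over all genes. The 2 became 1 without either DMSO library or without dTAG13 replicate 2, where the call of Tfap2a (0.68) was lost. Nes, the intermediate filament nestin, rose from 49.4 and 50.9 to 212 and 225 (log2 fold change 2.10, SE 0.14, limma adjusted p = 2.44e-10), while Tubb3 (-1.15), Pax6 (-1.13) and Sox1 (-0.66) fell. The Sox1 call was lost without DMSO replicate 2 or dTAG13 replicate 2, with no filter, with median-ratio scaling or TMM computed again, with the 4 day 2 libraries alone, and with edgeR and DESeq2. Of 18 blood and endothelium genes 4 passed the filter, and Runx1 (2.19), Tek (1.70) and Pecam1 (0.39) were called higher. Runx1 passed the filter only through its dTAG13 values, so its place among these calls is no result. The 4 listed globin genes were at 0 in all day 2 libraries. The smooth muscle gene Tagln rose from 12.1 and 20.2 to 46.3 and 49.6 (1.56), and Fn1 fell from 502 and 497 to 267 and 250 (-0.95). Col1a1 stood at 1.51 and 0.814 with DMSO and at 2.49 and 4.55 with dTAG13, a call that was lost under 8 of the alternatives, among them those without DMSO replicate 2 or dTAG13 replicate 2 and those with edgeR and DESeq2. These 3 were the called members of 9 tested fibroblast genes. Of 15 listed genes of the 2-cell-like state 3 passed the filter. The dTAG13 values of all 3 carried them past it, so their number is no result. Zscan4d rose from 1.38 and 2.58 to 6.84 and 7.89 (1.51), Zscan4a from 0.629 and 1.09 to 3.58 and 4.95 (1.5), and Usp17le from 0.251 and 0.271 to 4.66 and 4.15. Zscan4d and Zscan4a belong to a family of near-identical copies, so reads may be split between them.

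Of 44 listed collagen genes 22 passed the filter. Of these, 12 were called higher and 1 lower, where 13.7% of all genes were higher and 19.9% lower. The 12 became 7 without DMSO replicate 2 and 8 with a filter of at least 5 on the mean. Col22a1 and Col1a1 passed the filter only through their dTAG13 values, so their place in the 12 is no result. Col7a1, the anchoring fibril collagen, rose from 1.64 and 0.950 to 20.1 and 20.7 (log2 fold change 3.24, SE 0.27, limma adjusted p = 1.10e-08). Col27a1 (2.15), Col6a4 (1.60) and Col22a1 (1.51) rose, and Col9a2 fell (-1.46). Among epithelial and mesenchymal genes 10 of 24 were called higher and 5 lower. The tight junction gene Cldn4 rose from 147 and 164 to 366 and 430 (1.35), and Zeb2, a repressor of epithelial genes, fell from 10.6 and 8.14 to 2.80 and 5.08 (-1.10). Of 39 Hox genes 10 passed the filter, among which Hoxc13 rose (2.04) and Hoxa3 fell (-1.07).

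Genes of DNA replication and mitosis were mostly called lower. Of 27 replication and mitosis genes 22 were called lower and none higher (median -0.59). The replication clamp gene Pcna fell from 50.2 and 43.3 to 25.2 and 23.1 (log2 fold change -0.92, SE 0.14, limma adjusted p = 2.80e-05). Ccne1 (-0.89), E2f1 (-0.86), the licensing genes Cdc6 (-0.81) and Mcm2 (-0.75) and the topoisomerase gene Top2a (-0.74) fell too. Among 13 cell cycle inhibitors and D cyclins 5 were called higher and 4 lower. Beside Cdkn1a, the inhibitor gene Cdkn2b rose from 5.53 and 9.36 to 25.8 and 25.1 (1.69) and the retinoblastoma gene Rb1 from 22.4 and 21.3 to 83.2 and 82.1 (1.87, SE 0.13, limma adjusted p = 7.91e-10). Among the D cyclins, Ccnd2 rose from 18.7 and 19.5 to 107 and 114 (2.47), and Ccnd3 fell from 107 and 120 to 58.4 and 52.4 (-1.02).

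Of 63 ribosome biogenesis factors 30 were called lower and 1 higher (median -0.33). The largest decreases were Nolc1 (-0.81), Npm3 (-0.72), Tcof1 (-0.71), Gar1 (-0.71), Rrp1b (-0.67) and Nhp2 (-0.67), which act in the nucleolus or in small nucleolar particles. Nolc1 went from 239 and 202 to 130 and 120 (SE 0.11, limma adjusted p = 8.14e-06). The count of 30 became 19 without DMSO replicate 1 or without dTAG13 replicate 2, 24 after median-ratio scaling and 18 with DESeq2.

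Of 82 cytosolic ribosomal protein genes 22 were called lower and none higher (median -0.28), a share near the 19.9% of all genes. Rpl27 fell from 58.2 and 40.0 to 18.8 and 28.2 (-1.04). These genes have many near-identical pseudogenes, and of 1409 tested processed pseudogenes 456 were called lower, so their reads may be split. The count became 12 without DMSO replicate 1, 14 without dTAG13 replicate 2, 15 after median-ratio scaling and 10 with DESeq2. Of 16 snoRNA host genes 7 were called lower, led by Snhg5 (-0.93), Snhg8 (-0.90) and Snhg12 (-0.88). These became 4 without DMSO replicate 1, 3 without dTAG13 replicate 2 and 4 after median-ratio scaling.

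In energy metabolism the clearest change was in glycolysis, with 12 of 21 genes called lower and 1 higher (median -0.73). Pfkp, the platelet type phosphofructokinase, fell from 207 and 204 to 52.4 and 48.4 (log2 fold change -2.01, SE 0.12, limma adjusted p = 1.46e-10). The transporter gene Slc2a3 fell from 563 and 619 to 229 and 236 (-1.34). Tpi1 (-1.26), Gapdh (-1.10) and Hk2 (-1.04) fell, and the neuronal enolase gene Eno2 rose (1.82). Of these, Slc2a3, Tpi1, Gapdh, Hk2 and Eno2 lie on chromosome 6, and without that chromosome 8 genes of the list were called lower. Of 20 hypoxia genes 6 were called lower, where 19.9% of all genes were, with Egln3 (-1.72), Vegfa (-1.51), Ak4 (-1.38) and Bnip3 (-1.08) in front. Another 3 were called higher, a share near the 13.7% of all genes, among them P4ha2 (1.21) and Adm (0.90). The 3 increases became 1 without either DMSO library and 0 without dTAG13 replicate 2.

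Of 77 nuclear genes of oxidative phosphorylation 18 were called lower, a share near the 19.9% of all genes, and none higher (median -0.27). The named decreases, Ndufa11b (-0.96, annotated as a processed pseudogene), Uqcrq (-0.88), Ndufb10 (-0.88), Atp5mpl (-0.84), Ndufb11 (-0.80) and Ndufs7 (-0.73), were all small. The count became 6 without DMSO replicate 1 and 8 without dTAG13 replicate 2. Of 7 tested mitochondrially encoded genes 5 were called lower. mt-Nd1 stood at 5318 and 3573 with DMSO and at 2290 and 2339 with dTAG13 (-0.91), so the DMSO libraries differed from each other. The 5 calls became 1 without DMSO replicate 1, 3 without dTAG13 replicate 1 and 0 with DESeq2.

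Of 17 endoplasmic reticulum stress genes 12 were called lower and none higher (median -0.61). Xbp1, a factor of the unfolded protein response, fell from 97.2 and 93.5 to 44.6 and 37.2 (log2 fold change -1.21, SE 0.12, limma adjusted p = 1.54e-07). The chaperone genes Hspa5 (-0.76), Hsp90b1 (-0.68), Pdia4 (-0.93), Dnajb9 (-0.81) and Sdf2l1 (-1.0) fell. Of 25 cholesterol synthesis genes 12 were called lower and none higher, led by Cyp51 (-1.05), Insig1 (-0.77) and Ebp (-0.67). This count became 5 without DMSO replicate 2, 6 without dTAG13 replicate 1 or 2, 6 after median-ratio scaling and 5 with edgeR or DESeq2. Of 13 heat shock genes 4 were called lower, among them Hsph1 (-0.58) and Hspa4 (-0.56), and Hspa1a (1.69) and Hspb1 (0.73) were called higher, beside 19.9% lower and 13.7% higher over all genes. The 4 became 2 without dTAG13 replicate 2 and 7 with the 4 day 2 libraries alone or without DMSO replicate 1 or 2 of day 4.

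Among 20 apoptosis genes 5 were called higher and 6 lower. The death genes Pmaip1 and Bbc3, both p53 targets, rose, the second from 45.0 and 47.0 to 79.1 and 82.8 (0.80). The survival genes Bcl2 (1.81) and Bcl2l1 (1.27) rose as well, and Bok (-0.73) and Casp9 (-0.69) fell. The 6 decreases became 3 without DMSO replicate 1 or dTAG13 replicate 1, 2 without DMSO replicate 2 or dTAG13 replicate 2, and 3 after median-ratio scaling. Among lysosome and autophagy genes 5 of 20 were called higher and 3 lower, with Gpnmb (2.3) and the protease gene Ctsd (1.65) in front, followed by Ctsb (0.89) and the autophagy receptor gene Sqstm1 (0.88). The 3 decreases became 1 without DMSO replicate 2 or dTAG13 replicate 2. Among insulin-like growth factor genes 4 of 13 were called higher and 3 lower. The adaptor gene Irs2 rose from 44.9 and 64.5 to 216 and 249 (2.09), and Igfbp2 (-1.24), Igf2bp2 (-1.41) and Igf2bp3 (-0.91) fell. The 4 increases became 2 without DMSO replicate 1 or dTAG13 replicate 2. Of 15 interferon and antigen presentation genes 3 were called higher and 4 lower. For these 4 lists the shares over all genes are 13.7% higher and 19.9% lower. The peptide transporter gene Tap1 rose from 7.04 and 7.33 to 55.0 and 49.1 (2.69), beside its overlapping neighbour Psmb9 (1.05), and Irf1 (-0.73) and Ifit2 (-1.23) fell. The 4 decreases became 1 without DMSO replicate 1.

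Of 16 genes of DNA methylation, 8 were called lower and 2 higher. Uhrf1, which guides maintenance methylation, fell from 208 and 193 to 107 and 108 (log2 fold change -0.89, SE 0.10, limma adjusted p = 1.06e-06). Tet1, an oxidase of methylcytosine and among the most abundant transcripts named, fell from 2249 and 2203 to 1302 and 1176 (-0.85). Zfp57 (-0.93) and Trim28 (-0.75), which protect methylation at imprinted loci, fell. Dnmt3a fell from 126 and 136 to 105 and 93.6 (-0.40), and Dnmt3l rose from 21.5 and 21.3 to 45.2 and 41.6 (0.99). Of 33 Polycomb and H3K9 methylation genes 12 were called lower and none higher, with Phf19 (-1.01), Cbx2 (-1.0), Ezh2 (-0.85) and Cbx1 (-0.79) in front.

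Of 32 tested imprinted genes 15 were called higher and 2 lower (median 0.49). H19, a maternally expressed long RNA, rose from 34.5 and 25.1 to 127 and 135 (log2 fold change 2.12, SE 0.17, limma adjusted p = 3.49e-09). Peg10 rose from 816 and 1117 to 2671 and 3791 (1.74, SE 0.20, limma adjusted p = 1.09e-06), and its neighbour Sgce from 5.79 and 7.74 to 27.0 and 32.4 (1.99). In EpiLCs Peg10 stood at 2504 and 2678, near the dTAG13 libraries, and H19 at 5.58 and 3.99, below both groups. Plagl1, a zinc finger gene, rose (1.53), and Grb10, an adaptor of growth factor receptors, fell from 108 and 138 to 42.9 and 63.8 (-1.21). Without dTAG13 replicate 1 the list held 11 calls higher.

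Xist, the RNA that coats and silences an X chromosome (chrX:103460366-103483254, minus strand), had the largest increase of all named genes. It stood at 5.41 and 5.02 with DMSO and at 250 and 253 with dTAG13 (log2 fold change 5.35, SE 0.16, limma adjusted p = 1.77e-15). In untreated EpiLCs it stood at 129 and 138, at day 4 at 1.72 and 2.99 with DMSO and at 94.2 and 115 with dTAG13. The DMSO libraries of both days were therefore the low ones, and the EpiLC and dTAG13 libraries the high ones. Tsix, its antisense partner, fell from 98.3 and 82.5 to 55.9 and 51.9 (-0.73). Reads of the pair cannot be told apart where they overlap unless the counting used strand. Rlim, an activator of Xist, rose from 397 and 454 to 795 and 888 (0.98), and Ftx (0.65) was called higher.

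Of 567 tested genes on the X chromosome 143 were called lower (25.2%) and 38 higher (6.70%), and their median differed from that of the autosomes by -0.14. At day 4 that offset was -0.04. Each library was also set against the mean of the 10 libraries. At day 2 the X differed by 0.09 and 0.05 with DMSO and by -0.08 and -0.05 with dTAG13. It differed by 0.04 and -0.08 with DMSO and -0.09 and -0.05 with dTAG13 at day 4, where the groups overlapped. In EpiLCs, where Xist was high as well, the X differed by 0.13 and 0.16, above every day 2 and day 4 library. Of the 4 tested genes of the Rhox cluster, homeobox genes of the reproductive tract on the X, 3 were called lower. Rhox9 fell from 17.4 and 16.4 to 2.02 and 1.07 (log2 fold change -2.84, SE 0.28, limma adjusted p = 1.05e-07). Rhox6 fell from 12.8 and 16.3 to 2.33 and 3.48 (-2.0) and Rhox5 from 14.97 and 17.4 to 4.35 and 5.75 (-1.51). In EpiLCs Rhox9 and Rhox6 were near their dTAG13 level, at 0.254 and 0.665 and at 2.16 and 1.99, and Rhox5 was above both groups, at 26.4 and 33.6.

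Chromosome 6 stood out among the autosomes. Of its 817 tested genes 293 were called lower (35.9%) and 72 higher (8.81%), and their median change differed from that of the other autosomes by -0.27, while the other autosomes differed from the rest by -0.05 to 0.10. By library, the chromosome differed from the mean of the 10 libraries by 0.07 and 0.10 with DMSO, by 0.10 and 0.13 in EpiLCs, and by -0.19 and -0.16 with dTAG13. At day 4 the offset was -0.12. Whether the cells of the groups differed in copies of this chromosome was not tested. Without its genes 5194 genes were called in place of 5577. Of the called genes named here, Nanog, Gdf3, Asns, Mcm2, Ezh2, Slc2a3, Gapdh, Tpi1, Hk2, Stra8, Pdia4, Hoxa3 and Igf2bp3, which fell, and Peg10, Sgce, Eno2, Ccnd2 and Gpnmb, which rose, lie on it.

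**Figure D5:**
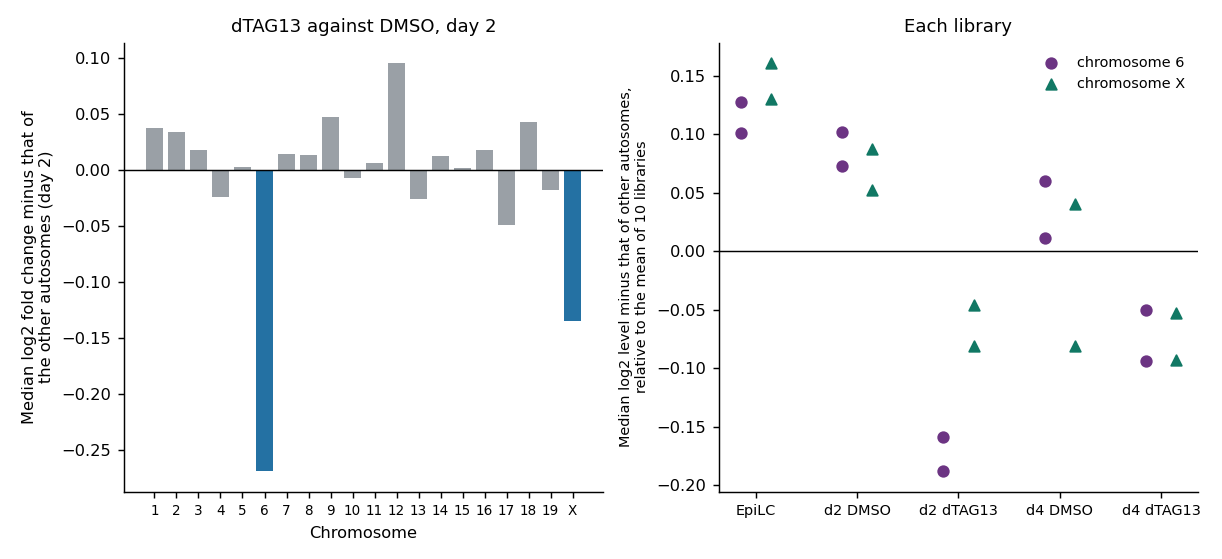
Left: median log2 fold change of each chromosome's tested genes at day 2 minus that of the other autosomes; chromosomes 6 (-0.27) and X (-0.14, or -0.135) are in blue. Right: the same kind of offset for chromosomes 6 (circles) and X (triangles) in each library, relative to the mean of the 10 libraries; the day 2 dTAG13 circles are the lowest.

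The largest changes of single genes were found among called genes with a mean of at least 5 and groups that do not overlap. Beside Xist, these increases included the protease gene Cpz, from 1.26 and 1.9 to 36.5 and 37.1 (3.88), and the leukotriene receptor genes Ltb4r2, from 5.28 and 6.11 to 96.8 and 81.9 (3.75), and Ltb4r1, from 2.01 and 2.71 to 36.4 and 37.2 (3.50). These receptor genes are neighbours on chromosome 14. The phosphatase gene Ptprt (3.64), the sodium channel subunit gene Scn3b (3.62), the junctophilin gene Jph2 (3.60), Nipal4 (3.57) and the integrin gene Itga8 (3.42) were of similar size. Ahnak2 rose from 15.7 and 19.3 to 167 and 203 (3.33), and Cryab (3.31), Insyn2a (3.29), Cd109 (3.27) and Vgf (3.24) completed the set with Col7a1. All were at or below 20 in every DMSO library. Ptprt, Jph2 and Nipal4 passed the filter of at least 1 on the mean only through their dTAG13 values.

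Among the 15 largest decreases, 7 were not members of a pathway described above. H2ac7, H2bc12 and H2bc15 encode histones made during DNA replication. H2ac7 fell from 67.3 and 25.5 to 4.66 and 6.42 (log2 fold change -2.71, SE 0.37, limma adjusted p = 6.84e-06), so its DMSO libraries differed between themselves by more than the dTAG13 libraries did. H2bc12 fell from 133 and 101 to 24.6 and 21.1 (-2.30) and H2bc15 from 113 and 50.8 to 13.2 and 22.6 (-2.07). Most mRNAs of this kind lack a poly(A) tail. These 3 were picked for the size of their change. A separate list for this kind held 9 genes, of which 3 were tested. Only Hist1h2an was called, as lower (-0.76), and that call was lost without any one of the day 2 libraries. The list took only symbols that start with Hist, so histone genes under newer names, such as H2ac7, H2bc12 and H2bc15, could not enter it. The family as a whole was therefore not surveyed. Usp26, an X-linked deubiquitinase gene (-2.44), the aldehyde dehydrogenase gene Aldh1b1 (-2.36), Kank4 (-2.35) and Hhip, an inhibitor of Hedgehog signals (-2.24), fell as well.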

How the data were processed

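RNA of mouse cells was extracted with Trizol and made into libraries with a NuGEN Ovation Mouse RNA-seq kit, per the labels' protocols. The authors' deposited signal values are TMM-scaled CPM. Per the submitters' processing notes, Bowtie2 2.3.4.3, SAMtools 1.9, HTSeq 0.11.2, edgeR 3.26.8 and build mm10 (GRCm38) were used, and a strand setting is not given in the sources used here. The authors' deposited table also holds log2 fold changes with p-values and FDR for this comparison, used only for the counts credited to it. The recovered reads were whole for 100% of values (tolerance 0.1 read).

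Values were analysed as log2(value + 1) with limma 3.58.1 in R 4.3.3, with a mean-variance trend and all 10 libraries of the table in 5 groups. edgeR 4.0.16 and DESeq2 1.42.0 on recovered reads served as alternatives, beside other pseudocounts, filters, scalings, GC and length correction, a replicate block, leaving out each library and leaving out chromosome 6. Counting the called members of each list under these alternatives was added after seeing the data. Intervals are not given, and 3 reads were taken as the floor. Replicates of a group differed by more than sampling noise, with a chi-square per gene of 5.06 for DMSO and 4.40 for dTAG13 at day 2. It was 14.9 for DMSO at day 4, the highest of the 5 groups, and those libraries enter the same estimate of the spread.

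Named genes were Tex10, the 15 largest called increases and decreases with a mean of at least 5, up to 6 called members of each gene list and a fixed set of regulators. Genes named for a promoter match were chosen after their values were seen, as was the p53 element searched for. The members and lists were chosen with earlier results of these data known. Positions are from GENCODE M21 and promoters from RefSeq on GRCm38.p6.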

Additional observations from a re-analysis of the deposited data

Results flagged for a closer look

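For 21 of the 269 tested named genes the change with dTAG13 at day 4 differed from that at day 2 in limma, against 208 of all 16605 tested genes (1.25%). Many of the named genes were picked for large called changes at day 2, so their count is no measure of an excess over all genes. The limma adjusted p of the difference was between 0.000159 and 0.0471. Values are the log2 fold change at day 4 minus that at day 2, over 2 libraries a group, and day 2 fold changes stand in brackets.

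For most of these genes the change of dTAG13 against DMSO was larger at day 4, in the same direction. Such a difference can come from either group: Nes was lower at day 4 than at day 2 in both. Among p53 targets, Mdm2 (2.33) differed by 0.676, Perp (2.78) by 0.954 and Plk2 (2.48) by 1.02. The growth regulators Ddit4 (2.41) and Irs2 (2.09) differed by 0.815 and 1.11, and the Xist activator Rlim (0.98) by 0.849. The germ cell factor Tfap2c (0.69) differed by 1.09, the receptor gene Notch3 (1.47) by 1.06, nestin, Nes (2.10), by 0.851 and the smooth muscle gene Tagln (1.56) by 2.76. Ltb4r2 (3.75) and Vgf (3.24) differed by 1.26 and 1.63.

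Decreases that were larger at day 4 were those of the naive genes Gbx2 (-1.53) and Tcl1 (-1.22), by -1.66 and -2.01, of the WNT antagonist Sfrp1 (-2.07) by -1.86, of the Nodal inhibitor Lefty2 (-2.16) by -1.03, of Pck2 (-2.13) by -1.36 and of Igfbp2 (-1.24) by -0.698. Decreases that were smaller at day 4 were those of Hk2 (-1.04), by 0.669, and Rhox9 (-2.84), by 1.76. Hoxa3 (-1.07) differed by 1.73 and was at 0.67 at day 4.

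Of the 21, 9 passed the threshold when DMSO replicate 1 or 2 of day 2 was left out, 5 without dTAG13 replicate 1 of day 2 and 5 without dTAG13 replicate 2 of day 4. With no filter on low values 2 passed it, and without the variance trend 0 did.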

How the results depend on the processing

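The count of genes called at day 2, 5577, was between 3603 and 6131 when 1 of the 8 libraries of the 4 groups of day 2 and day 4 was left out, with the lowest value without DMSO replicate 1 of day 2. It was 1789 when a log2 fold change of at least 1 was required, and the other alternatives gave 4309 (DESeq2) to 5879 (only the 4 day 2 libraries). Higher genes were 40.7% of the calls as deposited, 52.4% with TMM computed again, 52.5% with edgeR, 54.2% with DESeq2 and 61.3% with the required fold change. The numbers of the replicates did not pair the samples (correlation of deviations -0.0246 at day 2 and -0.0686 at day 4), and a replicate block gave 5507 calls at day 2 and 201 genes whose change differed between the days, in place of 208. That last count was between 44 and 366 with a library left out, 16 with no filter, 0 without the variance trend and 118 with the required fold change. At an unadjusted limma p under 0.05 it was 2013, and edgeR gave 248 and DESeq2 281. Of 256 called named genes, 159 had a value and the same call under all 22 alternatives, 204 had the same call wherever they had a value, 52 were lost in at least 1 and 0 reversed. No value was had by 36 with the filter of at least 5 and by 23 without chromosome 6. Beside those given with their values, calls lost with a day 2 library left out were Psmb9, Fgfr4, Npm3, Snhg8, Adm, Ebp, Smc1b, Bok, Zeb2, Ifit2, Irf1, mt-Nd1, Ndufa11b, Uqcrq, Ndufb10, Atp5mpl, Ndufb11 and Ndufs7 without DMSO replicate 1. They were Stra8, Hormad1, P4ha2, Adm, Casp9, Hoxa3 and Dnmt3a without DMSO replicate 2, and Hormad1, Fgfr4, Ndufb10, Atp5mpl, Ndufs7, Adm, Ebp, Hoxa3 and Zeb2 without dTAG13 replicate 1. Without dTAG13 replicate 2 they were Stra8, Fst, Npm3, Snhg8, Ndufa11b, Ndufb10, Atp5mpl, Ndufb11, P4ha2, Adm, Ebp, Bok, Casp9, Phf19, Psmb9 and Dnmt3a.

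Sign changes were found among uncalled genes. Dppa3 was at 0.057 with median-ratio scaling, 0.0546 with TMM, 0.134 with the GC and length correction with or without the block, 0.0834 with edgeR and 0.0896 with DESeq2, and between -0.111 and 0.0855 with a library left out. Fgf5 was at 0.0214, 0.00693, 0.00738, 0.296 and 0.305 in the same order, and between -0.612 and 0.547. Nol9 was at 0.0472 with median-ratio scaling, 0.0393 with TMM, 0.0544 with quantile normalization, 0.0357 with edgeR and 0.0431 with DESeq2, and between -0.217 and 0.107. With a library left out Otx2 was between -0.158 and 0.199 and Dazl between -0.0388 and 0.426. The cause was not tested. The depth of 5055362 to 6662524 reads limits what can be said of genes near 3 reads.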
